A study of Mus musculus with 2 samples.

Results

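The hairpin genes described here make 6 miRNAs best known from nerve cells: miR-128, miR-129, miR-137, miR-138, miR-153 and miR-218. They were chosen by name, as a list of 10 genes (Mir128-1, Mir128-2, Mir129-1, Mir129-2, Mir137, Mir138-1, Mir138-2, Mir153, Mir218-1 and Mir218-2), and all 10 were found among the 2202 miRNA genes of the count tables. The samples were adrenal glands taken at an age of 2 months from females of the hybrid strain B6CASTF1/J (F1), with no treatment named. The 2 samples form 1 group, and their labels number them as different females although both carry 1 donor label, so the spread between them may be technical. There was no second group, and the comparisons were between genes within the gland and between the 2 libraries.

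A miRNA gene is transcribed as a long precursor in which a hairpin forms. Enzymes cut the hairpin into a short duplex, and either arm, named 5p or 3p, can be loaded into an Argonaute protein as the mature miRNA. The seed, bases 2 to 8 of the mature miRNA, pairs with target mRNAs and lowers their output. In the brain miR-128 restrains neuronal excitability, miR-137 acts in neurogenesis and synapse maturation, miR-138 acts on dendritic spines, miR-153 on vesicle release genes and miR-218 in motor neurons. The adrenal gland joins a steroid-producing cortex to a medulla of chromaffin cells, which derive from the neural crest, store catecholamines in dense-core vesicles and are innervated by sympathetic nerve fibres. In whole gland tissue, fewer cells of a type and less RNA per cell cannot be told apart.

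The arms by which these miRNAs are usually known are shown first, since their sequences decide which counts can be read. Capitals mark the seed, sequences run 5′ to 3′, and all come from RefSeq (GRCm38.p6), where all 10 genes were matched by symbol.
miR-137-3p: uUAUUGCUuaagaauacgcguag
miR-153-3p: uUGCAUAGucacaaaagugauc
miR-128-3p: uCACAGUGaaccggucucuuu
miR-129-5p: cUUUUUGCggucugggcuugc
miR-138-5p: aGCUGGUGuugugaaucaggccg
miR-218-5p: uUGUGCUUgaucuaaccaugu
No seed is shared between these 6 arms. Mir137 and Mir153 are single genes, and the other 8 genes form 4 pairs, each making the same arm from 2 places in the genome. An exact search of 2202 annotated hairpins on both strands found miR-128-3p in Mir128-1 and Mir128-2, miR-138-5p in Mir138-1 and Mir138-2 and miR-218-5p in Mir218-1 and Mir218-2. It found miR-129-5p in Mir129-1 and Mir129-2, and in the same bases read from the opposite strand of Mir129-2, where Mir129b is annotated. Both arms of Mir137 and of Mir153 were found in no other hairpin. Outside the 10 genes, 1 mature miRNA in the table, miR-7002-3p, has one of these 6 seeds, that of miR-218-5p, and its gene had 0 counts in both libraries.

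These tables keep reads with more than 1 place of alignment in a row of their own, outside the genes. A read that holds only bases of the shared arm therefore counted for neither gene of a pair, and a count of a paired gene holds only reads with some base of its own. The partner arms carry those bases, and they are shown for the pairs with the seed again in capitals.
miR-128-1-5p: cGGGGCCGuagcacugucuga
miR-128-2-5p: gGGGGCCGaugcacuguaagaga
miR-129-2-3p: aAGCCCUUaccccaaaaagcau
miR-138-1-3p: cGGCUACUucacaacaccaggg
miR-138-2-3p: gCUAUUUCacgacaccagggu
miR-218-1-3p: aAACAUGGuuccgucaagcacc
miR-218-2-3p: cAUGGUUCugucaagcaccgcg
Each of these 7 arms was found in 1 hairpin only. The partner arms of Mir128-1 and Mir128-2 have the same seed, with 16 identical bases in 23 aligned columns. The partner arms of the miR-138 pair (18 identical bases in 23 columns) and of the miR-218 pair (18 in 25) differ in their seeds. For Mir129-1 the table lists miR-129-5p alone, so it had no listed arm of its own.

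The shared arms were followed into the hairpins to see how far 2 genes of a pair stay identical. Capitals mark the longest stretch that both hairpins of a pair have in common, shown for the pair with the largest ratio of counts and the pair with the longest stretch.
Mir128-1: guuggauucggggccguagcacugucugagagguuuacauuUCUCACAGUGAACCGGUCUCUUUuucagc
Mir128-2: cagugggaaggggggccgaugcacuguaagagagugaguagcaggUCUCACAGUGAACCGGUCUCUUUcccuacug
Mir129-1: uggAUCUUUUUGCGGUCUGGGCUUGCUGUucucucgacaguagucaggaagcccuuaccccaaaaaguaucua
Mir129-2: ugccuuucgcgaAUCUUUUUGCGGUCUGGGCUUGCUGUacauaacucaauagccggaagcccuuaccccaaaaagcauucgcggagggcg
In the miR-128 pair the stretch was 23 bases long and ended with the last base of the mature arm, so the next base in the genome already differs. In the miR-129 pair it was 26 bases long, with 2 bases before and 3 after the mature arm. The stretch was 24 bases in the miR-138 pair and 22 in the miR-218 pair. Over whole hairpins, identity was 71.4% for miR-128, 68.5% for miR-129, 54.5% for miR-138 and 70.4% for miR-218. Of all 20-base windows in a hairpin, 16.7% of those in Mir129-1 and 12.7% of those in Mir129-2 also occur in another hairpin. This share was 7.84% in Mir128-1, 7.02% in Mir128-2, 6.25% in Mir138-1, 9.62% in Mir138-2 and 3.30% in each gene of the miR-218 pair. It was 0% in Mir137 and Mir153. In Mir129-2, shared windows also start at bases 55 and 56 of the hairpin. They cover most of miR-129-2-3p, which spans bases 57 to 78, so this arm is close to the Mir129-1 hairpin though not identical.

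**Figure D1:**
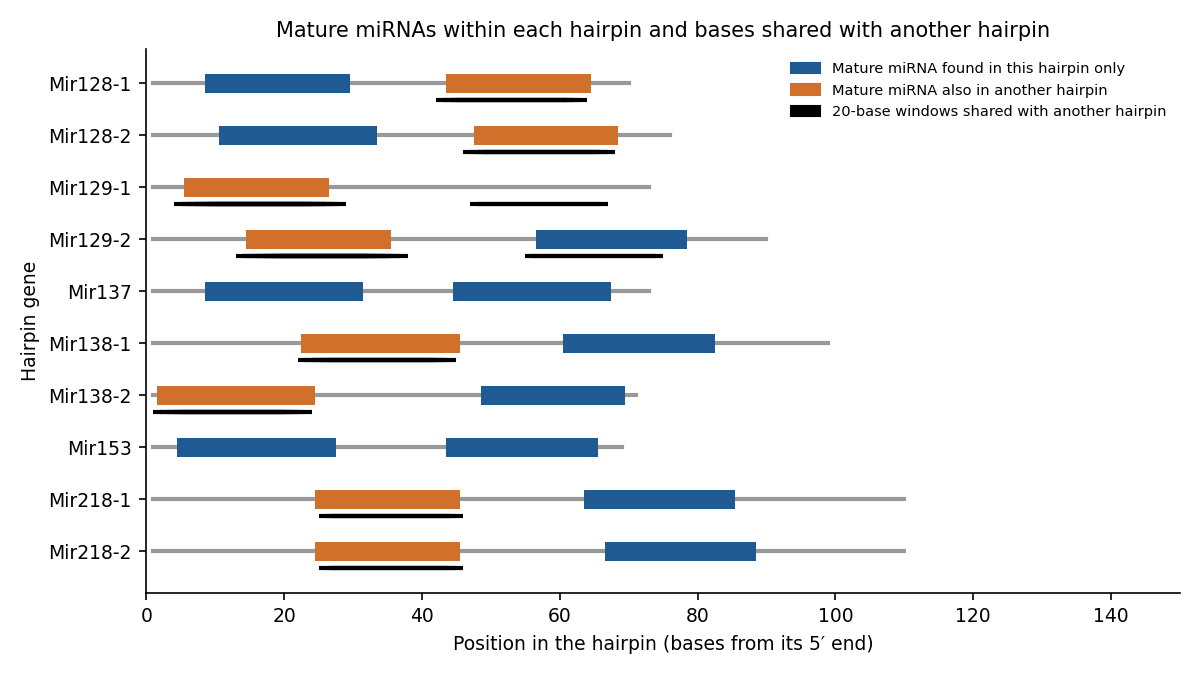
Each line is a hairpin (x axis: bases from its 5′ end). Blue boxes are mature miRNAs found in that hairpin only, orange boxes are mature miRNAs also found in another hairpin, and black bars cover 20-base windows shared with another hairpin. Mir137 and Mir153 have 2 blue boxes and no black bar, and Mir129-1 has an orange box only. Mir129-1 and Mir129-2 each have a second shared stretch towards the 3′ end, which in Mir129-2 lies under its blue box.

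The genes lie apart from each other, and only Mir128-2 and Mir138-1 share a chromosome. Mir137 (ENSMUSG00000065569.2) lies at chr3:118433857-118433929 on the plus strand of mm10, in an exon of all 3 transcripts of the noncoding gene Gm26871 that cross it. Mir138-1 (chr9:122682876-122682974, plus) lies in an exon of the transcribed pseudogene Gm47135, Mir138-2 (chr8:94324311-94324381, plus) in an exon of the noncoding gene C78859, and Mir129-1 (chr6:29022619-29022691, plus) in an exon of the noncoding gene Gm3294. Mir129-2 (chr2:94241364-94241453, minus) lies in an intron of the noncoding gene Mir670hg.

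The other 5 genes lie in introns of protein-coding host genes and on the host's strand. Mir153 (chr12:117250817-117250885, plus) is in intron 19 of Ptprn2, which encodes a membrane protein of dense-core vesicles in neuroendocrine cells, and an intron of the noncoding gene Gm5441 crosses it on the opposite strand. Mir128-1 (chr1:128202361-128202430, plus) is in intron 19 of R3hdm1, and Mir128-2 (chr9:112118636-112118711, minus) in intron 19 of Arpp21, which encodes a cAMP-regulated phosphoprotein of the brain. Mir218-1 (chr5:48223942-48224051, plus) and Mir218-2 (chr11:35616816-35616925, plus) lie in Slit2 and Slit3, which encode secreted axon guidance proteins. Both are in intron 14 of a transcript with 36 exons. Intron numbers are those of the longest transcript that crosses the hairpin in GENCODE M21. Each host holds no other miRNA gene, so no neighbour within the host could be read beside its miRNA, and the host mRNAs themselves are not measured by these libraries.

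The first question was how much of the adrenal miRNA pool these genes make up. Together they had 1892 counts of 2839732 in replicate 1 and 1101 of 2280028 in replicate 2. Their summed level was 666 counts per 1000000 gene counts (CPM) in replicate 1 and 483 CPM in replicate 2, which is 0.0666% (95% Clopper-Pearson interval 0.0637 to 0.0697) and 0.0483% (0.0455 to 0.0512) of the assigned counts. The mean was 575 ± 130 CPM (SD, n = 2). Detection was set at a minimum of 10 counts in each library. By that rule 9 of the 10 genes were detected, against 15.5% of all miRNA genes in the tables. That share takes in 1180 genes with no mature miRNA listed, of which 31 were detected. Among genes with both a shared and an unshared listed arm, as 7 of the 10 have, 40 of 61 were detected. The 10 genes were also chosen with earlier results of these data known. All intervals cover counting error only and leave out variation between animals or libraries. No molecular identifiers are named, so reads copied from 1 molecule could not be told apart, and the intervals may be too narrow.

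Mir137 led the group in both libraries. It had 1100 counts in replicate 1 and 562 in replicate 2, or 387 CPM (95% Poisson interval 365 to 411) and 246 CPM (227 to 268), a mean of 317 ± 99.6 CPM (SD, n = 2). This made up 58.1% of the group's counts in replicate 1 and 51.0% in replicate 2. It ranked 132 among all genes by mean CPM. Mir137 is 1 of the 2 genes with no 20-base window shared with another annotated hairpin. The rest of the genome was not searched, and the counts do not separate its 2 arms.

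Mir153, the other single gene, was far lower. It had 20 counts in replicate 1 and 53 in replicate 2, or 7.04 CPM (4.30 to 10.9) and 23.2 CPM (17.4 to 30.4). The 2 intervals do not overlap, and replicate 2 is the higher. Its mean of 15.1 ± 11.5 CPM (SD, n = 2) put it at rank 286.

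In the miR-138 pair, Mir138-1 was the second of the 10 genes and the most even between the libraries. It had 248 counts in replicate 1 and 197 in replicate 2, or 87.3 and 86.4 CPM, with a mean of 86.9 ± 0.657 CPM (SD, n = 2). Mir138-2 had 85 and 46 counts, or 29.9 and 20.2 CPM, with a mean of 25.1 ± 6.90 CPM (SD, n = 2). Mir138-1 thus had 2.92 times the counts of Mir138-2 in replicate 1 (95% interval 2.27 to 3.78) and 4.28 times in replicate 2 (3.09 to 6.04), and these intervals overlap.

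In the miR-129 pair, Mir129-2 had 210 and 143 counts in replicates 1 and 2, or 74.0 and 62.7 CPM, with a mean of 68.3 ± 7.94 CPM (SD, n = 2). Mir129-1 had 39 and 18 counts, or 13.7 and 7.89 CPM. Mir129-2 was the higher by 5.38 times (3.81 to 7.79) in replicate 1 and 7.94 times (4.85 to 13.8) in replicate 2. Mir129-1 is the gene with no listed arm of its own, and how much of the difference comes from unassigned reads was not tested. On the opposite strand lies Mir129b, which had 0 counts in replicate 1 and 1 in replicate 2. When strand was ignored, reads over both genes were counted for neither, and Mir129-2 kept 1 count in each library.

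In the miR-128 pair, Mir128-1 had 100 counts in replicate 1 and 34 in replicate 2, or 35.2 CPM (28.7 to 42.8) and 14.9 CPM (10.3 to 20.8). The intervals do not overlap, and replicate 1 is the higher. Mir128-2 had 6 counts in replicate 1 and 0 in replicate 2, and was the 1 gene of the 10 that was not detected. Its 6 counts are 2.11 CPM (0.775 to 4.60), and a count of 0 allows up to 1.32 CPM, taken as 3 counts. That limit lies within the interval of replicate 1, so a difference between the libraries was not detectable at this depth. Mir128-1 had 16.7 times the counts of Mir128-2 in replicate 1 (7.39 to 46.5), and in replicate 2, with 34 counts against 0, the lower 95% limit of the ratio was 8.73.

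The miR-218 pair was the closest. Mir218-2 had 51 and 26 counts in replicates 1 and 2, or 17.96 and 11.4 CPM, and Mir218-1 had 33 and 22, or 11.6 and 9.65 CPM. The ratio of Mir218-2 to Mir218-1 was 1.55 in replicate 1 (0.978 to 2.47) and 1.18 in replicate 2 (0.644 to 2.19). Both intervals include equal counts, so no order between the 2 Slit-hosted genes was detectable at this depth.

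**Figure D2:**
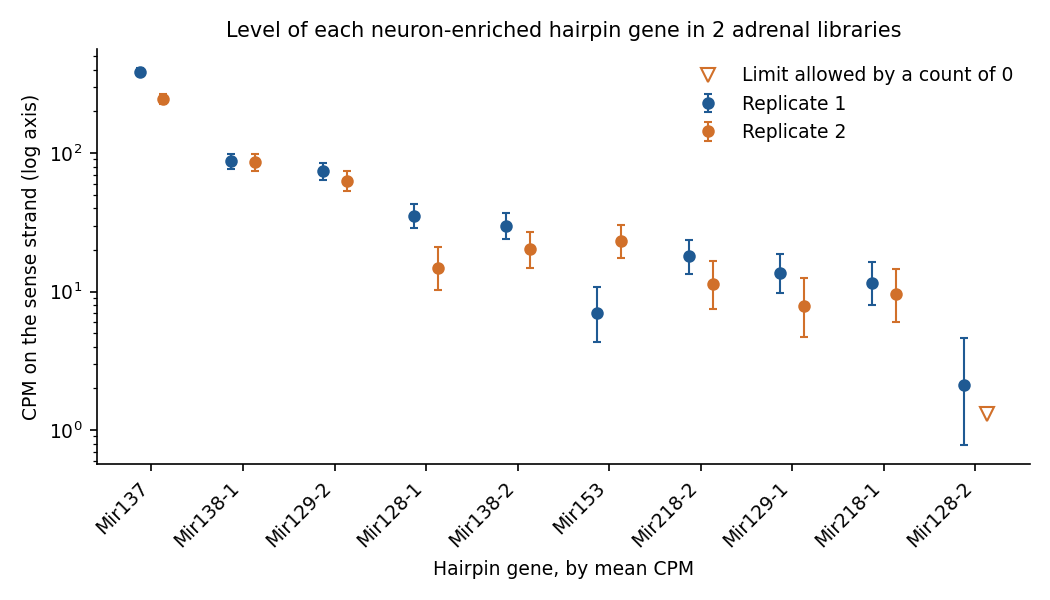
Each point is the level of a gene in a library (y axis: CPM on the sense strand, log scale; x axis: genes ordered by mean CPM), with bars for the exact 95% Poisson interval and an open triangle for the limit that a count of 0 allows. Mir137 lies above 200 CPM in both libraries, Mir138-1 and Mir129-2 lie between 60 and 90 CPM, and the bars of the 2 libraries are apart for Mir137, Mir128-1 and Mir153.

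Ordered by mean CPM, the genes ran Mir137, Mir138-1, Mir129-2, Mir128-1, Mir138-2, Mir153, Mir218-2, Mir129-1, Mir218-1 and Mir128-2. A read of a mature miRNA spans it whole, so levels were compared as reads with no length scaling. Per 100 bases of hairpin, 8 of the 10 genes keep their rank, and Mir218-2 and Mir129-1 change places. Each of the first 3 genes exceeded the next in both libraries by more than the sum of their SDs. The gap of 18.5 CPM between Mir138-1 and Mir129-2 stood against summed SDs of 8.60 CPM. From Mir128-1 down to Mir218-1 no gene differed from its neighbour beyond the SDs, and Mir128-2 lay below Mir218-1 beyond them. The order holds for assigned reads, and for 8 of the 10 genes these leave out reads that hold only shared bases.

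The row for reads with several places of alignment held 2673681 reads in replicate 1 and 2193599 in replicate 2, and the tables do not say which genes they came from. Among all genes with a listed arm, 40 of 61 with both a shared and an unshared arm were detected. So were 266 of 910 genes whose listed arms are all unshared and 5 of 51 genes with no unshared arm. The median level of the detected genes was 55.8 CPM in the first class, 179 CPM in the second and 12.5 CPM in the last. These classes leave out 1180 genes with no mature miRNA listed, of which 31 were detected. Of the 10 neuron-enriched genes, 7 belong to the first class, Mir137 and Mir153 to the second and Mir129-1 to the last.

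The genes nearest in level were found by distance in log2(CPM + 1) over the 2 libraries, among 2192 other genes. Nearest to Mir137 were Mir668 (405 and 250 CPM in replicates 1 and 2), Mir148a (408 and 264 CPM) and Mir376a (407 and 218 CPM). Nearest to Mir138-1 were Mir3072 (83.5 and 90.3 CPM), Mir148b (96.8 and 89.9 CPM) and Mir370 (88.4 and 99.1 CPM). With 2 samples, such nearness describes a level and a ratio only.

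The second question was whether the 2 libraries differed in these genes. Each gene with a mean count of at least 10 was compared by an exact binomial test of its 2 counts given the totals, and passed at a Benjamini-Hochberg adjusted p under 0.05 over all 369 genes tested and a difference of at least 2-fold. The test compares these 2 libraries and not conditions. Of the 9 neuron-enriched genes tested, 2 passed, against 18.7% of all genes tested. Mir128-1 passed as higher in replicate 1, as did 10% of all genes, and Mir153 passed as higher in replicate 2, as did 8.67%. The split of calls over all genes, 32 higher in replicate 2 and 37 higher in replicate 1, became 24 and 45 with median-of-ratios scaling and 19 and 48 when counts were scaled to all reads.

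For Mir153 the ratio of replicate 2 to replicate 1 was 3.30 (95% interval 1.94 to 5.83, adjusted p of the exact binomial test 3.61e-06). For Mir128-1 the ratio was 0.423 (0.278 to 0.631, adjusted p of the exact binomial test 1.24e-05). Since miR-128-3p is shared with Mir128-2, this ratio is that of the assigned reads of Mir128-1 and not that of the mature miRNA. The 2 genes lie in intron 19 of different hosts and differed in opposite directions between the libraries.

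Mir137 had a ratio of 0.636 (0.574 to 0.705), with an adjusted p of 2.21e-18 in the exact binomial test, and did not reach 2-fold. Mir138-2 had a ratio of 0.674 (0.460 to 0.976, adjusted p 0.0542 in the exact binomial test), Mir218-2 of 0.635 (0.380 to 1.04) and Mir129-1 of 0.575 (0.310 to 1.03). Mir129-2 (0.848, 0.681 to 1.05), Mir218-1 (0.830, 0.461 to 1.47) and Mir138-1 (0.989, 0.816 to 1.20) had intervals that include equal levels. Of the 9 tested genes, 8 had a ratio below 1, with a median log2 ratio of -0.57, while 45.8% of all genes tested had a ratio below 1, with a median of 0.07. Mir138-1 changed sign with unstranded counts and with totals that left out the muscle and erythroid genes. Scaling moved the median of all genes by -0.16 on the log2 scale with median-of-ratios and by -0.22 with all reads.

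**Figure D3:**
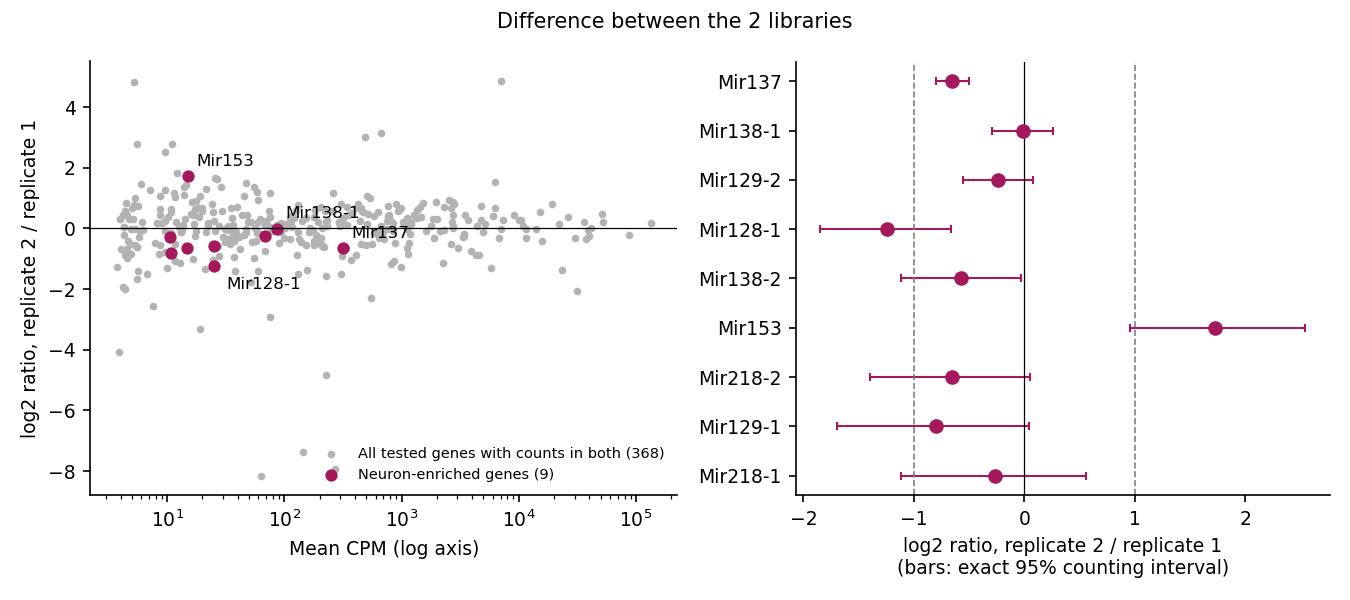
The left panel plots the log2 ratio of replicate 2 to replicate 1 (y axis) against mean CPM (x axis, log scale) for tested genes with counts in both libraries in grey and the 9 tested neuron-enriched genes in colour. The right panel gives those 9 ratios with exact 95% counting intervals, with dashed lines at 2-fold, and Mir153 is the 1 gene whose interval lies right of 0. The point of Mir128-1 lies beyond the left dashed line. The intervals of Mir153 and Mir128-1 each cross a dashed line.

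The libraries also differed in genes of other cell types, and the part of these in the ratios above was not tested. Of 9 skeletal and heart muscle genes, 3 were tested and all 3 passed as higher in replicate 1, and the list's summed level was 953 CPM in replicate 1 and 4.39 CPM in replicate 2. Mir133a-1, Mir133a-2 and Mir133b of that list stood at 0 in both. Erythroid genes summed to 643 and 14488 CPM, with Mir451a and Mir144 passing as higher in replicate 2, while Mir486, the third of the list, had 187 and 133 counts and did not pass. White blood cell genes summed to 1331 and 1051 CPM. Of these 4 genes, Mir223 passed as higher in replicate 1 (377 against 40 counts), and Mir150 (660 and 467 CPM), Mir155 (329 and 354 CPM) and Mir142 (209.5 and 213 CPM) did not pass.

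Glial genes were set beside the neuronal ones because nerve fibres carry glia. Mir338, known from oligodendrocytes and other glia, had 1288 counts in replicate 1 and 363 in replicate 2, or 454 and 159 CPM, and passed as higher in replicate 1. Mir219a-1 had 41 and 45 counts, and Mir219a-2 had 15 and 0. The glial list summed to 474 and 179 CPM over its 5 genes, of which 2 were detected.

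Other neuron-enriched genes gave a wider view of the class. Of 25 listed genes 24 were found in the tables and 15 were detected. They summed to 13052 CPM in replicate 1 and 13346 CPM in replicate 2, or 23.0 times the summed level of the 10 genes, both as means over the libraries. The 2 lists were not counted on equal terms. In the wider list, 12 of the 15 detected genes have only unshared listed arms. Of the 10 genes, 7 have both a shared and an unshared listed arm, so how far the levels differ was not tested. Mir433 (3703 ± 488 CPM; SD, n = 2) and Mir382 (3423 ± 437 CPM), both from the imprinted Dlk1-Dio3 region, led that list, followed by Mir708 (1476 ± 281 CPM) and the activity-regulated Mir132 (991 ± 586 CPM). Mir134 (981 CPM), Mir770 (666 CPM), Mir485 (626 CPM), Mir668 (328 CPM) and Mir329 (128 CPM) also come from the Dlk1-Dio3 region. Much of the summed level of the wider list is thus that of 1 imprinted region. Of the 15 tested genes of the wider list, 1 passed, namely Mir132 as higher in replicate 1 (3990 against 1314 counts), and the median log2 ratio was 0.15. Neuroendocrine genes, led by Mir375 at 38600.4 ± 1160 CPM (SD, n = 2), summed to 44038 and 41419 CPM, and none of the 7 passed the 2-fold rule. Endothelial genes, led by Mir126a, summed to 43208 and 59465 CPM, and smooth muscle and fibroblast genes, led by Mir143, to 23167 and 25516 CPM.

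The textbook neuronal miRNAs miR-9 and miR-124 had no assigned count. All 3 Mir9 genes and all 3 Mir124a genes stood at 0 in both libraries, which allows up to 1.06 CPM in replicate 1 and 1.32 CPM in replicate 2 of assigned reads. None of the Mir9 genes has a listed arm of its own. The longest stretch shared with another Mir9 hairpin was 33 bases in Mir9-1 and Mir9-2 and 26 bases in Mir9-3. The Mir124a hairpins share stretches of up to 32 bases, and the miR-129 pair a stretch of 26 bases. Mir129-1, also with no listed arm of its own, had 39 and 18 counts in replicates 1 and 2. Its hairpin also holds a stretch close to miR-129-2-3p but not identical, for which no arm is listed. Each Mir9 gene has 2 listed arms and both are shared, so Mir129-1 is not a like case. Of all 20-base windows, 40.0% were shared in Mir9-1, 52.8% in Mir9-2, 18.3% in Mir9-3 and between 33.3% and 49.0% in the Mir124a genes. Their reads, if any, can therefore lie among those aligned to several places, and the counts do not show whether the gland lacked them.

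**Figure D4:**
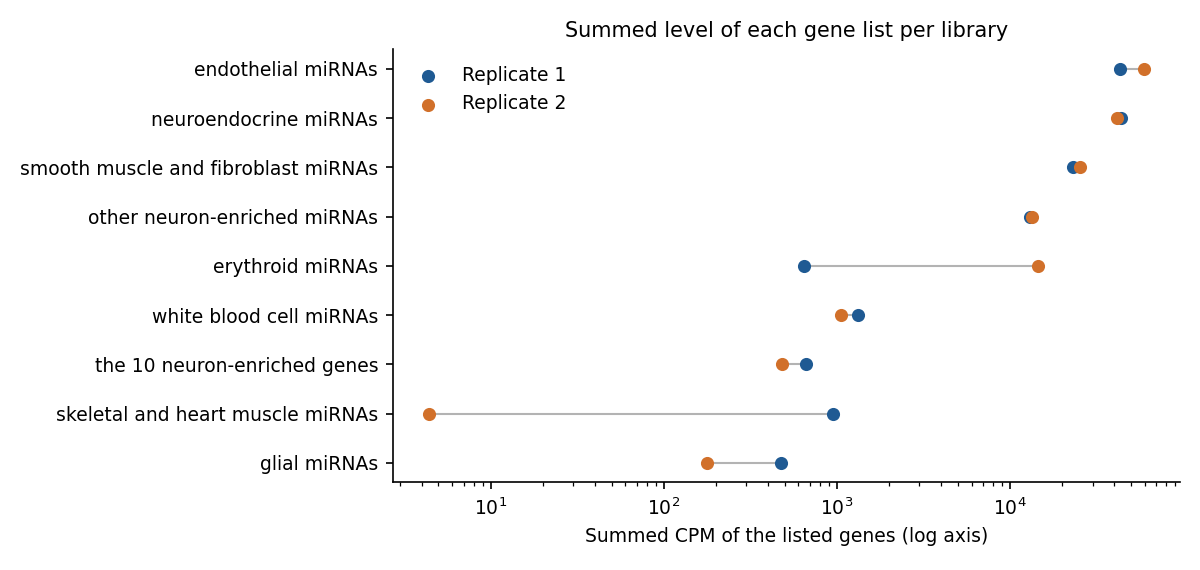
Each row is a gene list and each point its summed level in a library (x axis: CPM, log scale), with a grey line between the libraries. The 10 neuron-enriched genes, at 666 and 483 CPM, lie below the neuroendocrine and other neuron-enriched lists in both libraries, and the erythroid and muscle lists have the widest gaps.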

How the data were processed

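MicroRNA sequencing libraries of 2 adrenal glands were used as counts per miRNA gene that the authors deposited, not normalized, with mm10 and GENCODE M21 named in the sample information deposited beside them. Which programs aligned and counted the reads is not given in the sources used here. The tables have 3 columns of counts (unstranded, sense and antisense), and the sense column, which has the larger total, was used. The first 4 rows name no gene (unmapped, several places, outside genes, ambiguous) and stayed out of totals and tests: they held 69.4% of 9278190 reads in replicate 1 and 73.7% of 8659511 in replicate 2. A count was worth 0.352 and 0.439 CPM. Symbols of all 2202 genes were matched by identifier.

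CPM, SDs, exact Poisson and Clopper-Pearson 95% intervals and exact two-sided binomial tests across all genes with Benjamini-Hochberg adjustment were computed with SciPy 1.17.1, and TMM factors with edgeR 4.0.16. With 2 samples in 1 group the smallest exact p over samples is 0.5, so no test over samples was run. The binomial procedure was run on simulated counts that varied by counting error only, so variation between animals or libraries was not covered. It called 95 of 100 genes changed 4-fold, 6 of 100 changed 1.5-fold and 0 of 169 unchanged genes. Hairpins were taken from GENCODE M21 and mature miRNAs from RefSeq GRCm38.p6, placed by position, and searched for exact matches in annotated hairpins, not in the whole genome. Reads of the CAST alleles that differ from the reference were not analysed here.

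The 10 genes, the 8 other lists and the tests were chosen with earlier results of these data known. All 10 genes were named, with up to 4 of the highest mean CPM of each other list and the 3 genes nearest in level to the 2 most abundant of the 10. Genes of those lists that stood at or near 0, other listed genes of the Dlk1-Dio3 region, and single genes whose counts bear on a pair were named after their values were seen. Alternatives were other scalings, unstranded counts, other count minimums and single replicates.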

Additional observations from a re-analysis of the deposited data

Results flagged for a closer look

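Reads aligned to several places lie outside the counts compared above, at 2673681 in replicate 1 and 2193599 in replicate 2 (28.8% and 25.3% of all reads). The flag asks only for more than 3 reads, which a total over a whole library passes whatever the 10 genes do. Which of these reads came from miR-128-3p, miR-129-5p, miR-138-5p or miR-218-5p was not tested. On the opposite strand the 10 genes held 0 counts in replicate 1 and 1 in replicate 2. With 2 samples in 1 group, no sample was tested as lying far from the others, and no difference between groups was tested.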

How the results depend on the processing

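The summed level of the 10 genes ran from 483 CPM (without replicate 1) to 666 CPM (without replicate 2) and was 166 per 1000000 when scaled to all reads, a larger total by construction. With 10 or more counts required, 9 genes were detected in either replicate alone, 8 with unstranded counts and 8 at 20 or more counts. The number that passed between the libraries was 2 with TMM, median-of-ratios and unstranded counts, with no filter on low counts and with totals that left out the muscle and erythroid genes, and in each the 2 were Mir128-1 and Mir153. It was 3 when scaled to all reads, where Mir129-1 joined (log2 ratio -1.02, adjusted p of the exact binomial test 0.0209). It was 0 at a mean count of at least 100, where 3 of the 10 genes were tested by the exact binomial test and Mir128-1 and Mir153 were not, and 33 of 234 genes passed over all genes. Mir138-1 had a log2 ratio of 0.040 with unstranded counts and of 0.0033 with totals that left out the muscle and erythroid genes, a setting chosen after seeing the data that moves every ratio by 0.019 on the log2 scale, against -0.02. In the order of levels, 3 of the 10 genes kept their rank with unstranded counts, where Mir129-2 went last and Mir138-2 passed above Mir128-1. Of 56 recomputed ratios of single genes, 53 kept their direction and their side of the threshold. Most of this was fixed in advance. Another count minimum left each ratio as it was, and each scaling moved all ratios by the same amount. With unstranded counts, the genes still tested kept their counts. Sharing with another hairpin was found for 8 genes by whole arms and by stretches of 18 or 20 bases. No paired analysis was possible because there was 1 group. Low counts leave the ratios of Mir218-1 and Mir129-1 loosely bounded.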
